A study of Mus musculus with 4 samples.

Results

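miR-199 and miR-214 are miRNAs known from mesenchymal cells such as fibroblasts and the cells of developing bone. They were followed here through small RNA sequenced from main olfactory epithelium, the sensory sheet at the back of the nose together with the tissue dissected with it. The members were taken by name from the deposited comparison table: all rows called miR-199a, miR-199b or miR-214, either arm. Of 6 such names, 5 had a row among the 1167 rows of the table, and mmu-miR-199b-3p, which had none, is not analysed here as a row of its own. No pair of these 5 rows held identical values. The libraries came from male C57BL/6 mice 3 months of age, 2 from wild-type animals and 2 from AC3-/- animals, which lack adenylyl cyclase 3, the enzyme that makes cAMP when an odour receptor is activated. The labels name no transgene, Cre line or treatment, and whether the 2 libraries of a genotype stem from separate mice is not stated, so the p-values here measure only the spread between libraries, which may be technical. In whole tissue, fewer cells of a type and less RNA per cell cannot be told apart, and the libraries do not show which cells made these miRNAs, so their mesenchymal origin is background and not a result.

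A miRNA gene is transcribed as a longer RNA from which a hairpin is cut, and each of the hairpin's arms can give a mature miRNA of about the same length, called 5p or 3p. The mature miRNA guides Argonaute proteins to messenger RNAs mainly through its seed, bases 2 to 8. miR-199a and miR-214 are known to be made from Dnm3os, a noncoding RNA transcribed against the dynamin gene Dnm3 and switched on by the mesenchymal factor Twist1; Dnm3os is needed for normal skeletal growth in the mouse. miR-214 and miR-199a are also studied in muscle, in fibrosis and in the heart.

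The mature sequences below (RefSeq, GRCm38.p6) are shown because they decide which reads can be told apart; the seed is in capitals. Of the 6 names, 5 matched a mature sequence there, and mmu-miR-199b-5p had none.
mmu-miR-199a-5p: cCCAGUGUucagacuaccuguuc
mmu-miR-199a-3p: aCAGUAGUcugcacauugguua
mmu-miR-199b-3p: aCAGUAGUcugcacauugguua
mmu-miR-214-5p: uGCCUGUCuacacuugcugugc
mmu-miR-214-3p: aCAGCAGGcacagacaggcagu
The 3p arms of miR-199a and miR-199b are the same molecule, so the reads of the row named mmu-miR-199a-3p cannot be assigned to the a or the b gene. These 5 names thus stand for 4 distinct sequences with 4 distinct seeds. Among the RefSeq mature miRNAs, 1 other from the mouse, mmu-miR-761, has the seed of mmu-miR-214-3p, and none has any of the other 3 seeds. mmu-miR-199b-5p, which has no entry there, is not covered by this count.

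The hairpins show where these arms come from; the mature arms that the RefSeq table places in each are in capitals.
Mir199a-1: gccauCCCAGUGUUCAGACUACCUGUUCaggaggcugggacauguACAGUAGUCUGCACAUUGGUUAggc
Mir199a-2: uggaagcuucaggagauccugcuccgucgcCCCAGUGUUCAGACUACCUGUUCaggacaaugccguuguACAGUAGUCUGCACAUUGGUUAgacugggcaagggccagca
Mir199b: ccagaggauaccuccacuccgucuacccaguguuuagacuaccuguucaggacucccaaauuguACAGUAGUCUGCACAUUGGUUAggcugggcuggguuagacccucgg
Mir214: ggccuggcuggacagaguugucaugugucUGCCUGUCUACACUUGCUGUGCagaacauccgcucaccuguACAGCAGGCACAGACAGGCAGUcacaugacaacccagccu
Laid without gaps on these hairpins, mmu-miR-199a-5p matches Mir199a-1 and Mir199a-2 with 0 mismatches and Mir199b with 1, C10U, counted from 1 at the 5′ end of the mature miRNA. That base lies outside the seed, so the seed of mmu-miR-199a-5p also stands unchanged in Mir199b.

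Each hairpin lies against a dynamin gene in GRCm38. Mir199a-2 is at chr1:162217814-162217923 and Mir214 at chr1:162223368-162223477, both on the plus strand, 5444 bases apart. GENCODE M21 places both in exonic sequence of Dnm3os on the same strand and in intronic sequence of Dnm3 on the opposite strand. Mir199a-1, on the minus strand at chr9:21496495-21496564, lies opposite an intron of Dnm2. Mir199b, on the plus strand at chr2:32318460-32318569, lies opposite an intron of Dnm1. By exact match to these hairpins, reads of mmu-miR-199a-5p can come from chromosome 9 or chromosome 1, and both miR-214 arms come from chromosome 1 alone.

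All 5 rows were well detected in both genotypes, and none passed the test between them in the authors' deposited table. The means there are read counts divided by library size factors, averaged over the 2 libraries of a genotype. Reads of the 5 rows made up 0.920% of the summed AC3-/- means and 0.792% of the summed wild-type means. None of the 5 had an adjusted p under 0.05 in the authors' deposited table, against 1 of all 1167 rows, mmu-miR-124-3p (0.0857%). None had an unadjusted p under 0.05 there either, against 41 of 1167 (3.51%). Ligation and PCR favour some sequences, so the order of levels that follows is one of reads, not of molecules.

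The most abundant row was mmu-miR-199a-3p, ranked 28 of 1167 in AC3-/- and 27 in wild type. Its mean in the authors' deposited table was 61483 normalised reads for wild type against 48652 for AC3-/-, with a shrunken log2 fold change (AC3-/- over wild type) of -0.30 and an adjusted p of 0.940. mmu-miR-199a-5p followed at rank 43 in each genotype, with a wild-type mean of 27299.5 and an AC3-/- mean of 22980.3 there, a log2 fold change of -0.21 and an adjusted p of 0.940. The 3p arm of miR-199a thus had 2.12 times the reads of the 5p arm in the AC3-/- means and 2.25 times in the wild-type means, with the reads of the miR-199b 3p arm included.

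mmu-miR-199b-5p, whose hairpin is on chromosome 2, had a wild-type mean of 3672 and an AC3-/- mean of 4151 in the authors' deposited table, where its log2 fold change was 0.16 and its adjusted p was 0.945. The miR-214 arms lay just below it. For mmu-miR-214-3p these were 3526 and 3039 (log2 fold change -0.19, adjusted p = 0.940 in the authors' deposited table). For mmu-miR-214-5p they were 1542 and 1614 (log2 fold change 0.06, adjusted p = 0.979 there).

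3 of the 5 rows thus lay below 0 and 2 above in the authors' deposited table, as did 589 and 578 of all 1167. The members' median log2 ratio of the deposited means, which carry no shrinkage, was -0.21, with values from -0.34 to 0.18; over all rows with both means above 0 it was -0.06. These directions depend on the scaling: with the deposited means divided by the totals of their columns over all rows, all 5 ratios were above 0, from 0.16 to 0.67 with a median of 0.28. The AC3-/- column total lay below the wild-type one, at a log2 ratio of -0.50. This scaling moves every ratio by the same amount, so the members' median stays below that of all rows. For the 3 rows with library values, scaling to totals over such rows, or by TMM, kept the directions. Among the 155 rows with a mean of at least 1000, the median absolute log2 ratio was 0.248, and 53 had a larger one than any of the 5.

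**Figure D1:**
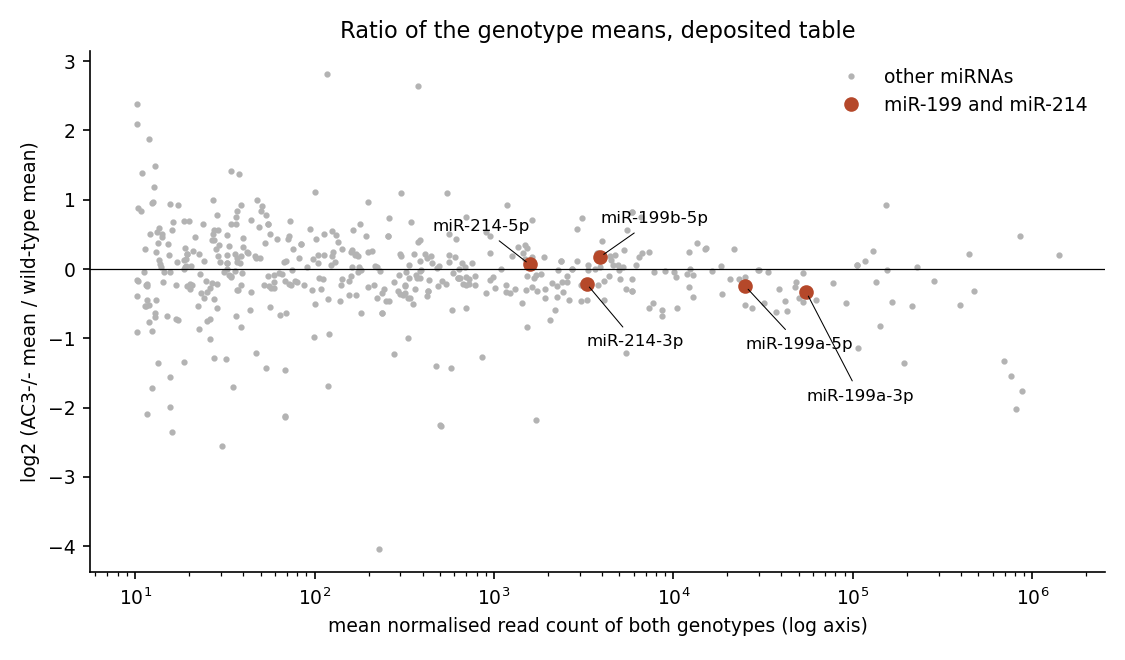
Log2 ratio of the AC3-/- mean to the wild-type mean (vertical axis) against the mean normalised read count of both genotypes (horizontal log axis) for rows whose overall mean reached 10, with a value above 0 in each genotype. The 5 miR-199 and miR-214 rows, in red, lie between -0.34 and 0.18, inside the band of other miRNAs at their level.

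Library values were worked back from the deposited means for the members that allow it. A mean of 2 libraries is a whole-number combination of what 1 read is worth in each, and for mmu-miR-199b-5p, mmu-miR-214-3p and mmu-miR-214-5p just 1 pair of whole read numbers gives the deposited mean in each genotype. The libraries are called a and b here, a having the larger size factor; the letters carry no replicate number.

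mmu-miR-199b-5p had 4682 normalised reads in library a and 3620.1 in library b of AC3-/- (5375 and 3977 reads), next to 4157 in library a and 3187 in library b of wild type (3912 and 2725 reads). Library a was higher than library b in each genotype, by 1.29 times in AC3-/- and 1.30 times in wild type, and the genotypes overlapped. The mean was 4151 ± 751 (SD, n = 2) for AC3-/- and 3672 ± 686 (SD, n = 2) for wild type. limma's fit gave a log2 difference of 0.18 (95% interval -0.54 to 0.89) with an adjusted p of 0.932.

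mmu-miR-214-3p had 2552 normalised reads in library a and 3526 in library b of AC3-/- (2929 and 3874 reads), next to 3887 in library a and 3166 in library b of wild type (3658 and 2707 reads). Here library b was the higher of the AC3-/- pair and library a the higher of the wild-type pair, and the genotypes overlapped again. The means were 3039 ± 689 (SD, n = 2) and 3526 ± 510 (SD, n = 2), and the log2 difference in limma's fit was -0.23 (95% interval -0.97 to 0.52, adjusted p = 0.932).

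mmu-miR-214-5p, the less abundant arm of the same hairpin, followed the same order of libraries: 1395 and 1834 normalised reads for libraries a and b of AC3-/- (1601 and 2015 reads), next to 1709 and 1375 for the wild-type ones (1608 and 1176 reads). The means were 1614 ± 311 (SD, n = 2) and 1542 ± 236 (SD, n = 2). limma's fit gave a log2 difference of 0.06 (95% interval -0.74 to 0.86, adjusted p = 0.975).

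Each interval allows a difference in either direction. As folds of AC3-/- over wild type they ran from 0.688 to 1.86 for mmu-miR-199b-5p, 0.511 to 1.43 for mmu-miR-214-3p and 0.599 to 1.82 for mmu-miR-214-5p. The fit ran over 448 miRNAs that had library values and reached a mean of 10. limma called 0 of the 448 at an adjusted p of 0.05 (0%), and 16 had an unadjusted p under 0.05 (3.57%), none of them a miR-199 or miR-214 row. These counts turn on the wild-type libraries: limma called 65 of the 448 without wild-type library a (14.5%; 129 with an unadjusted p under 0.05) and 2 without wild-type library b (46), with no miR-199 or miR-214 row called in either fit. In each, the lone wild-type library is assumed to vary like the AC3-/- pair. The genotypes did not overlap for 0 of the 3 rows and for 151 of the 448 (33.7%). With 2 libraries a side, the smallest p an exact permutation test can give is 0.333.

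Several pairs of whole read numbers fit the most abundant rows, and the deposited means do not tell which is right. mmu-miR-199a-5p had 1 pair in wild type, with 32690.2 normalised reads in library a and 21909 in library b (30765 and 18735 reads), library a again the higher. Its AC3-/- mean fits 2 pairs, either 27574 and 18386 or 7497 and 38463 normalised reads for libraries a and b. mmu-miR-199a-3p had 2 pairs in wild type, 72052 and 50914 or 15746 and 107220 normalised reads, and 5 pairs in AC3-/-. No test was made on either row's libraries.

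**Figure D2:**
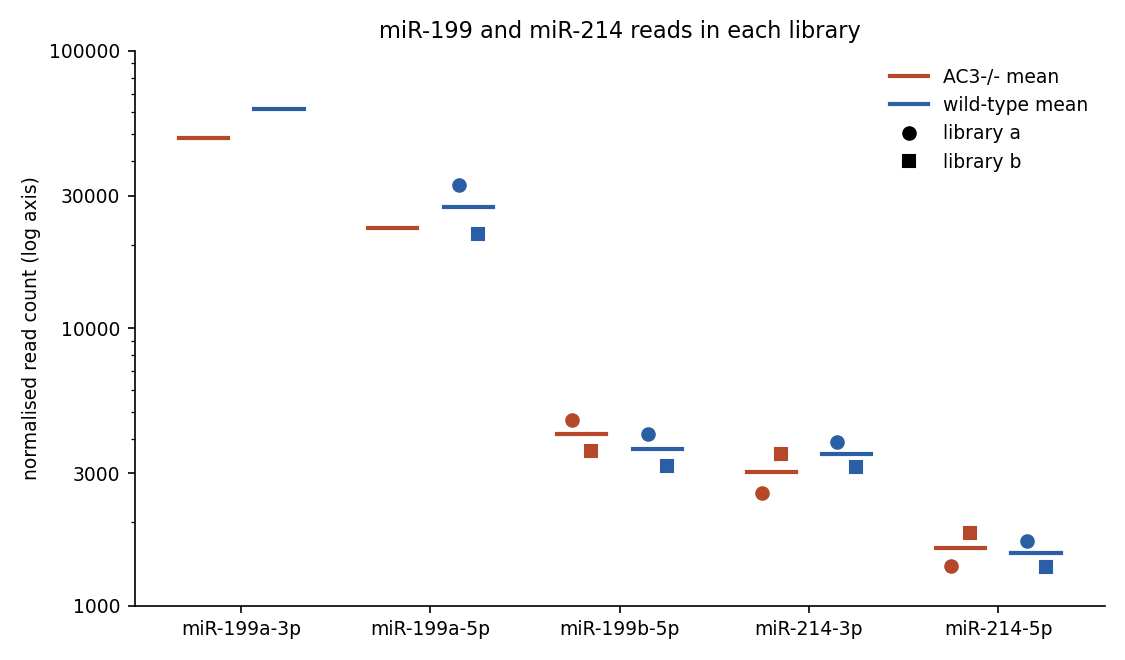
Normalised read counts (vertical log axis) of the 5 rows. Horizontal lines are the deposited means of AC3-/- (red) and wild type (blue), and circles and squares are libraries a and b where 1 pair of whole reads gives the mean. The points of the genotypes overlap for miR-199b-5p, miR-214-3p and miR-214-5p.

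In order of reads, mmu-miR-199a-3p stood above mmu-miR-199a-5p in both means. mmu-miR-199a-5p in turn stood above mmu-miR-199b-5p by 5.54 times in the AC3-/- means and 7.44 times in the wild-type means (7.86 times in library a and 6.88 times in library b). mmu-miR-199a-5p differs from the Mir199b hairpin by 1 base, and how mismatches were treated in counting is not given. Whether reads passed between these rows was not tested. mmu-miR-199b-5p stood above mmu-miR-214-3p in each of the 4 libraries, in most of them by little. The ratio of the first to the second was 1.84 and 1.03 for libraries a and b of AC3-/-. It was 1.07 and 1.01 for the wild-type ones, and the difference between these rows was not tested. mmu-miR-214-5p lay below mmu-miR-214-3p in each of the 4 libraries.

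The arms of miR-214 kept a narrow ratio within each genotype and a slightly different one between genotypes. The 5p arm gave 35.3% of the miR-214 reads in AC3-/- library a (1601 of 4530, 95% Wilson interval 34.0% to 36.7%) and 34.2% in library b (2015 of 5889, 33.0% to 35.4%). It gave 30.5% in wild-type library a (1608 of 5266, 29.3% to 31.8%) and 30.3% in library b (1176 of 3883, 28.9% to 31.8%). These intervals cover counting error only, and may be too narrow even for that, since reads amplified by PCR are not independent molecules. Both AC3-/- values lay above both wild-type values. The log2 ratio of the 5p to the 3p arm differed by 0.29 between the genotypes, while it ranged over 0.07 within AC3-/- and 0.02 within wild type.

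Set against other hairpins, which were not matched to miR-214 for level, this difference was of ordinary size, though its ranges within a genotype were narrow. In 115 hairpins with both arms at a mean of at least 10, the median absolute difference of the arm ratio was 0.32. Of these, 61 had a larger one than miR-214. Their median range within a genotype was 0.39, wider than the 0.07 and 0.02 of miR-214. The genotypes did not overlap in 44 of the 115 (38.3%). limma's fit on the arm ratios, chosen after seeing the data, gave miR-214 a 95% interval of -0.20 to 0.77 and an adjusted p of 0.742. It called 0 of the 115 at an adjusted p of 0.05 (0%), and 9 had an unadjusted p under 0.05 (7.83%), miR-214 not among them. limma draws the spread of each hairpin toward that of the others. Its standard error for miR-214 was 0.22, wider than the ranges miR-214 itself showed within a genotype. The interval and p of miR-214 thus reflect mainly the spread of the other hairpins, not its own.

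**Figure D3:**
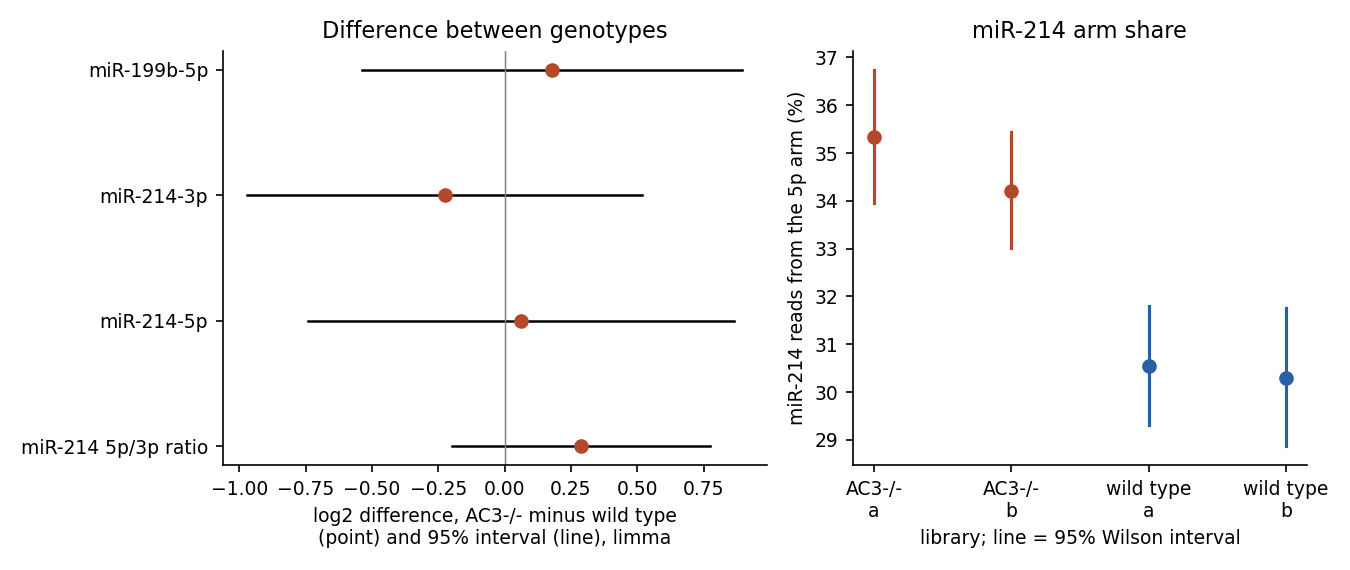
Left, log2 difference of AC3-/- minus wild type with its 95% interval from limma for the 3 rows with library values and for the ratio of the miR-214 arms; each interval spans 0. Right, share of miR-214 reads from the 5p arm in each library (vertical axis in percent, not starting at 0) with 95% Wilson intervals; the AC3-/- libraries lie at 35.3% and 34.2%, the wild-type libraries at 30.5% and 30.3%.

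Wild-type library b stood apart from the others across the profile, but the 3 miR-199 and miR-214 rows with library values differed little between it and library a. Over the 448 miRNAs the SD of the log2 difference between libraries a and b was 1.11 in wild type and 0.57 in AC3-/-. Between the wild-type libraries mmu-miR-199b-5p differed by 0.38 (a minus b), mmu-miR-214-3p by 0.30 and mmu-miR-214-5p by 0.31 on the log2 scale, where the median absolute difference of all 448 was 0.58. 159, 126 and 133 of the 448 had a smaller difference than these 3, in the same order. Each was still larger in size than that row's difference between the genotypes with all 4 libraries (0.18, -0.23 and 0.06). Without wild-type library b the log2 difference between the genotypes was -0.01 for mmu-miR-199b-5p, -0.37 for mmu-miR-214-3p and -0.10 for mmu-miR-214-5p, with adjusted p-values of 0.988, 0.681 and 0.949 in limma's fit, whose spread then comes from the AC3-/- pair alone.

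Between the AC3-/- libraries the rows differed in opposite directions. mmu-miR-199b-5p was higher in library a by 0.37 on the log2 scale, and mmu-miR-214-3p and mmu-miR-214-5p were lower there by 0.47 and 0.39, against a median absolute difference of 0.33 for all 448. 249, 301 and 256 of the 448 had a smaller difference. The miR-199b and miR-214 hairpins lie on different chromosomes, and the miR-214 arms share one. Whether this bears on the directions was not tested.

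**Figure D4:**
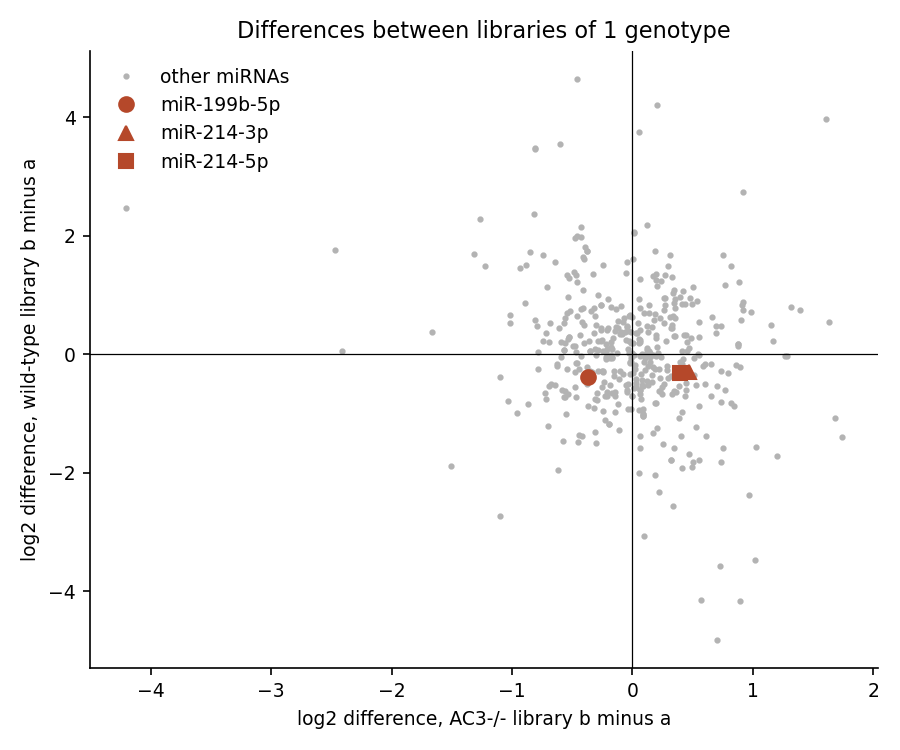
Log2 difference between libraries b and a of AC3-/- (horizontal axis) and of wild type (vertical axis) for 448 miRNAs. The miR-214 arms lie together at lower right, miR-199b-5p lies at lower left, and all 3 lie closer to 0 on the vertical axis than the median absolute difference of 0.58.

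Likeness of library profiles was measured as the root mean square difference over the 4 libraries of log2 values centred on each miRNA's own mean. 249 other miRNAs with a mean of at least 100 were compared; the points share the same 4 libraries, and the measure is a description. The 5 nearest to mmu-miR-199b-5p were miR-127-3p (0.0376), miR-25-3p (0.0674), miR-136-3p (0.0700), miR-652-3p (0.0734) and miR-93-5p (0.0910), against a median of 0.339. miR-127-3p had 1931 and 1515 normalised reads for libraries a and b of AC3-/- and 1684 and 1386 for the wild-type ones, so it repeats the order of mmu-miR-199b-5p in each pair. The 5 nearest to mmu-miR-214-3p were miR-379-5p (0.0586), miR-497a-5p (0.0784), miR-31-5p (0.0826), miR-27b-5p (0.0833) and miR-28a-5p (0.0990), against a median of 0.363. miR-379-5p had 767 and 1021 for AC3-/- and 1052 and 939 for wild type, likewise in the order of mmu-miR-214-3p. The other arm, mmu-miR-214-5p, lay at 0.146 from mmu-miR-214-3p, with 10 of the 249 nearer. mmu-miR-199b-5p lay at 0.360 from it, with 122 nearer.

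Other miRNAs known from connective tissue and its relatives, chosen as a list with earlier results of these data known, were not called either. The list holds miR-143 and miR-145a of smooth muscle and fibroblasts, miR-140 and miR-455 of cartilage, miR-152 and miR-21a, 12 rows in all. Of the 12 rows in the authors' deposited table, 5 were above 0 and 7 below, 0 passed the adjusted p of 0.05 and 0 had an unadjusted p under 0.05; the median log2 ratio of the means was -0.08, where all rows had -0.06. The 2 most abundant were miR-21a-5p, with a wild-type mean of 716969 and an AC3-/- mean of 999383, and miR-143-3p, with 408719.7 and 474412 (adjusted p = 0.940 for each in the authors' deposited table). With library values, the genotypes did not overlap for 5 of 8 rows of the list, 2 higher in AC3-/- (miR-145a-5p, miR-152-5p) and 3 lower (miR-140-5p, miR-455-5p, miR-455-3p), beside 0 of the 3 miR-199 and miR-214 rows and the 33.7% of all 448, and limma called 0 of the 8. miR-145a-5p had 15308 and 15340.4 normalised reads for libraries a and b of AC3-/- and 13054 and 10532 for the wild-type ones. Its other arm, miR-145a-3p, had the lower mean in AC3-/-, with overlapping genotypes: 2503 and 1807 for AC3-/- and 3384 and 2052 for wild type. The cartilage miRNA miR-140-5p had 3881 and 3795 for AC3-/- and 4319 and 4356 for wild type. miR-3120, which is known from the strand opposite miR-214, is not analysed here.

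Lists of miRNAs known from other cells of the tissue had larger median differences between the wild-type libraries, striated muscle only slightly so. From library a to library b, the median log2 difference was -0.31 for the 3 miR-199 and miR-214 rows and -0.15 for the 8 connective tissue rows with library values. It was 1.34 for 7 rows of sensory epithelium (miR-183, miR-96, miR-182 and the miR-200 family) and -2.93 for 6 rows of multiciliated cells (miR-34b, miR-34c and miR-449). Leukocyte rows stood at -1.79 (9 rows), basal epithelium at -0.85 (4 rows), red cells at -0.72 (5 rows), striated muscle at 0.36 (4 rows) and the 1 endothelial row, miR-126a-5p, at -1.05. The part of cell makeup in the miR-199 and miR-214 values was not tested.

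Between the genotype means, the sensory epithelium rows summed to 5463498 for wild type and 1832630.2 for AC3-/- and were all below 0 (16 of 16), with 0 past the adjusted p and 5 with an unadjusted p under 0.05. The 8 sensory rows with library values summed to 24649 and 27571 normalised reads for libraries a and b of AC3-/-, to 23570.1 for wild-type library a and to 61504 for wild-type library b, so in these rows the lower AC3-/- sum rests on wild-type library b. Those 8 rows held only a small part of the list's sums. miR-200b-3p and miR-183-5p, the list's most abundant rows, have no library values. The AC3-/- and wild-type means of miR-200b-3p were 399796 and 1351262, and those of miR-183-5p were 322736 and 1304447 (both from the authors' deposited table). The miR-199 and miR-214 rows summed to 80436 and 97522. The summed means of the other lists were 250289 and 244253 for multiciliated cells (9 rows, most abundant miR-34c-5p), 18115 and 12312 for leukocytes (10 rows, miR-142a-3p), and 144853 and 120845 for endothelium (2 rows, miR-126a-3p). They were 5479 and 6823 for striated muscle (5 rows, miR-1a-3p), 18900.4 and 21352 for basal epithelium (4 rows, miR-203-3p) and 6104 and 5149.8 for red cells (5 rows, miR-451a). No row of these lists passed the adjusted p. The leukocyte difference also rests on wild-type library b: the 10 rows summed to 15876 and 20355 normalised reads for libraries a and b of AC3-/-, 18174 for wild-type library a and 6450.5 for wild-type library b. The red-cell sum was higher in AC3-/-, though 4 of its 5 rows lay below 0 and 1 above. That sum was 6949 and 5259 for libraries a and b of AC3-/- and 6601 and 3699 for the wild-type ones, so the genotypes overlapped.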

How the data were processed

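Small RNA of main olfactory epithelium was sequenced from 4 libraries, grouped by their titles. The authors deposited 1 table of 1167 rows. Per the file headers and their values, its abundance columns hold a signal: read counts normalised and averaged within a genotype by the authors, with no raw count. The log2 fold change deposited beside them is shrunken (in the median to 86.1% of the plain log2 ratio for means of at least 100). The deposited p-value has an adjusted form next to it. Bowtie, DESeq 1.8.3 and the GRCm38 build are named in the submitters' processing notes; which tool counted reads, which miRBase release was used and which filters applied is not given in the sources used here.

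Whole reads per library were solved from each deposited mean (1 solution for 1124 rows in AC3-/- and 1132 in wild type, checked on simulated tables), with size factors of 1.148 and 1.099 in AC3-/- and 0.9411 and 0.8551 in wild type. Depth was 19244686 to 20015622 reads over the AC3-/- libraries together and 21181847 to 23078721 over the wild-type ones. Genotypes were compared on log2(normalised value + 1), a scale that understates low miRNAs' changes, by limma (version 3.58.1, R version 4.3.3) with its intensity trend and Benjamini-Hochberg adjustment. The rule for names took all members, the 5 nearest profiles of 2 of them and up to 2 rows of each list. Both miR-145a arms, miR-152-5p, miR-140-5p, both miR-455 arms, miR-21a-3p and miR-124-3p were named after their values were seen. Members and lists were chosen with earlier results of these data known.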

Additional observations from a re-analysis of the deposited data

How the results depend on the processing

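No member was called in the authors' deposited table at an adjusted or an unadjusted p of 0.05. limma's fit covered only the 3 rows with library values, without the miR-199a rows. None of these 3 was called under any of 11 alternatives (pseudocounts of 0.5 and 5, other filters, other scalings, no intensity trend, each library left out). Over all miRNAs those fits called 65 of 448 without wild-type library a, 2 of 448 without wild-type library b and 0 under the other 9. With all 4 libraries, the direction of each of the 3 rows with library values was the same under both pseudocounts and under TMM scaling and scaling to each library's total over rows with library values. That total leaves out the most abundant rows, unlike the column totals of the deposited means. With 1 library left out it was not. The log2 difference of mmu-miR-199b-5p ran from -0.01 to 0.37, falling to -0.0077 without AC3-/- library a and -0.0138 without wild-type library b. That of mmu-miR-214-3p ran from -0.46 to 0.01, at 0.0076 without AC3-/- library a. That of mmu-miR-214-5p ran from -0.14 to 0.26, at -0.136 without AC3-/- library b and -0.0952 without wild-type library b. The adjusted p lay between 0.403 and 0.999 over these alternatives. The median log2 ratio of the 5 rows, -0.21, was 0.281 with means divided by column totals, a shift that all rows share. It was 0.0663 over the 3 rows with library values, an alternative chosen after seeing the data. Over these 3, with 1 library left out, it ran from -0.145 to 0.231. The miR-214 arm ratio kept its direction under 9 alternatives chosen after seeing the data (0.25 to 0.32, adjusted p from 0.520 to 0.977). No paired analysis was possible because the deposited columns are genotype means and the recovered libraries carry no replicate numbers. The 3 rows had 1176 to 5375 reads in each library, and each genotype has 2 libraries; how far either limits these comparisons was not tested.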
